A study of Mus musculus with 33 samples.

Results

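Pisd and its transcribed pseudogenes Pisd-ps1 and Pisd-ps2 are 3 of the 38393 gene rows of a mouse brain RNA-seq study. They were chosen by name, as the rows called Pisd, Pisd-ps1 or Pisd-ps2, and they are all the rows whose name begins with Pisd. They were singled out because of their values in 1 comparison, cerebella of Mir7DKO mice against wild type in experiment 1B, so those values are given below as a description without a test. The mice were males of the C57Bl/6J strain aged 1 month, and polyadenylated RNA of each was made into a stranded library. In experiment 1A, cerebella of 3 wild-type mice were set against 4 of mice whose Cyrano, a long noncoding RNA, has its site for miR-7 mutated (CyrMut). In experiment 1B, 4 wild-type cerebella were set against 4 lacking Cyrano (CyrKO) and 4 labelled Mir7a1-/- and Mir7b-/- (Mir7DKO). Experiment 2 held cerebella and cortices of 4 wild-type and 3 Mir7DKO mice per tissue, prepared and sequenced as an experiment of its own. The labels name no transgene or Cre driver, and they do not say whether a cerebellum and a cortex with the same number came from the same mouse.

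Pisd encodes phosphatidylserine decarboxylase, an enzyme of the inner mitochondrial membrane that removes the carboxyl group of phosphatidylserine and so makes phosphatidylethanolamine, a major phospholipid of brain membranes. Its substrate is made at the endoplasmic reticulum by Ptdss1 and Ptdss2 and has to be carried into mitochondria, while a separate route builds phosphatidylethanolamine from ethanolamine. Pseudogenes are copies of a gene that are not annotated to encode its protein, and some are still transcribed. MicroRNAs such as miR-7 repress messenger RNAs through short matches to bases 2 to 8 of the microRNA, the seed.

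The 3 genes lie on different chromosomes in GRCm38 (GENCODE vM21 annotation). Pisd (ENSMUSG00000023452), which is protein coding, lies on chromosome 5 from 32736301 to 32785646 on the minus strand. Pisd-ps1 (ENSMUSG00000082286) lies on chromosome 11 from 3125904 to 3131004 on the plus strand, and Pisd-ps2 (ENSMUSG00000023795) on chromosome 17 from 3076578 to 3084183 on the minus strand. Both copies are annotated as transcribed unprocessed pseudogenes, a class of copies that kept an exon and intron structure. An exon of 237 bases is present in all 3 and is shown because it is how alike the rows are, and where they differ, that decides which reads can be assigned to 1 of them. It is exon 4 of the transcript Pisd-201 at chr5:32739137-32739373, inside the coding part, exon 3 of Pisd-ps1-201 at chr11:3128929-3129165, and exon 3 of Pisd-ps2-202 at chr17:3079355-3079591, each read along the strand of its gene. Capitals mark the 17 positions at which the 3 are not all the same.
Pisd: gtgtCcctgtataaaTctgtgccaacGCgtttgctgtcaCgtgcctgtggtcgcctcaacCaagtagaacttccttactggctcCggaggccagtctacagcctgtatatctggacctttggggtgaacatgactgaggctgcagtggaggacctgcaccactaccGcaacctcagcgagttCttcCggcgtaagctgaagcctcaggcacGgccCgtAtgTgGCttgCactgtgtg
Pisd-ps1: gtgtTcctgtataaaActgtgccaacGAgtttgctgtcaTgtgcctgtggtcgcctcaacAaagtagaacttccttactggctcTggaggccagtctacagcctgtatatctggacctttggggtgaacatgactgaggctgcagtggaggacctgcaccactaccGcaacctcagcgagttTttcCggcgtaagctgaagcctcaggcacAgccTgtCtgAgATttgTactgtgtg
Pisd-ps2: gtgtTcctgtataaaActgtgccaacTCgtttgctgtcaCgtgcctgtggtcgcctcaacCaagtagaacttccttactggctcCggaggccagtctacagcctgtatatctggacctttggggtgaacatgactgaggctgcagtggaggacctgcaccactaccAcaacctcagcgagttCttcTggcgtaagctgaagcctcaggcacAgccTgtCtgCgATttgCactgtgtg
The other 220 positions are shared, with 81 bases as the longest run without a difference. Pisd and Pisd-ps1 differ at 14 positions of this exon, Pisd and Pisd-ps2 at 11, and the pseudogenes from each other at 10.

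Exons of 139 and 147 bases also recur at equal length in the 3 transcripts. In the exon of 139 bases, 97.1% of positions matched between Pisd and Pisd-ps1 and 97.8% between Pisd and Pisd-ps2. Along whole transcripts, Pisd-ps1-201 (1115 bases) aligned to Pisd-201 (2183 bases) over 910 positions with 93.7% identity, from base 345 to base 1254 of Pisd-201. Pisd-ps2-202 (1175 bases) aligned over 906 positions with 94.0% identity, and the pseudogenes aligned to each other over 1061 positions with 94.8% identity. Both copies thus cover most of the coding sequence, which runs from base 34 to base 1251 and holds 406 codons before the stop, and lack the long last part of Pisd exon 8.

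**Figure D1:**
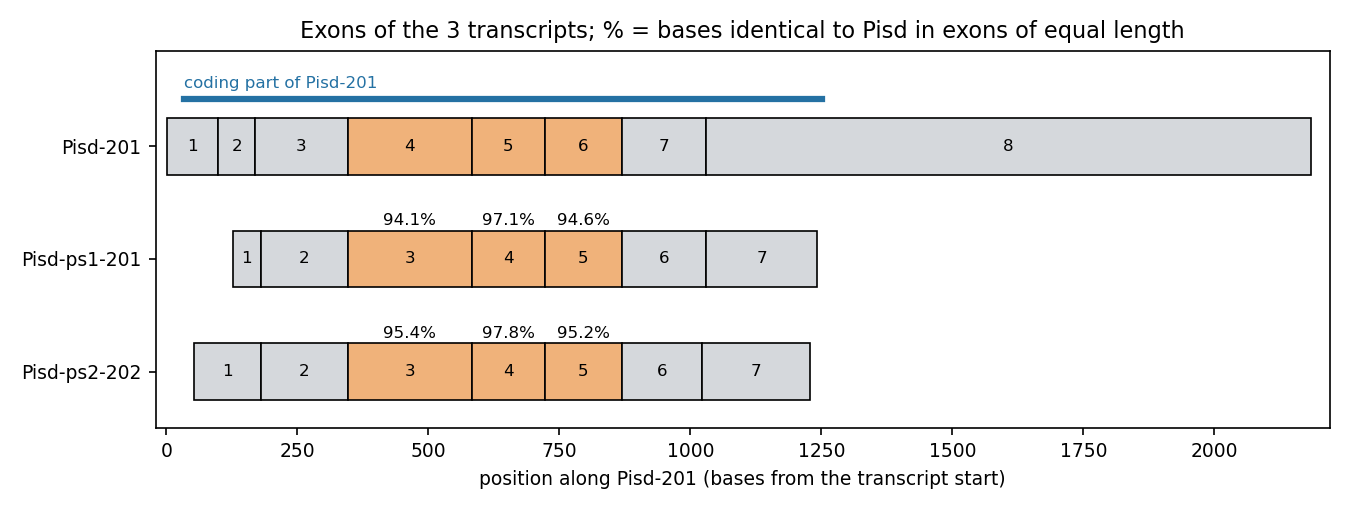
Exons (numbered boxes) of the transcripts Pisd-201, Pisd-ps1-201 and Pisd-ps2-202, drawn to scale in bases and placed so that the exons of 237 bases line up; the x axis is the position along Pisd-201. Orange exons have the same length in all 3 transcripts, with the percentage of bases identical to Pisd above them (94.1% and 95.4% in the exon of 237 bases), and the blue line is the coding part of Pisd-201.

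Reads of 1 row could in part be counted to another, and the extent was measured with stretches of 50 bases. Of the 1066 such stretches of Pisd-ps1-201, 84.5% occurred in no other annotated gene, 11.9% also in Pisd and 10.4% also in Pisd-ps2. Of the 1126 stretches of Pisd-ps2-202, 77.7% occurred in no other gene, 18.9% also in Pisd and 9.86% also in Pisd-ps1. Of the 2134 stretches of Pisd-201, 5.95% recurred in Pisd-ps1 and 9.98% in Pisd-ps2. A further gene model on the same strand, Gm20671, covers 1156 of the 5750 exon bases of Pisd (20.1%), and it was listed at 0 counts in all 33 libraries. Every stretch that Pisd-201 shares with a pseudogene also occurs in Gm20671: among the 1021 stretches that do not, 0 recurred in Pisd-ps1 and 0 in Pisd-ps2. The treatment of reads with several matches or in overlapping genes is not stated in the labels or files, so the 3 counts carry that uncertainty.

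Because the mutants concern miR-7, its sequence and matches to its seed are given. The mature microRNAs from RefSeq (GRCm38.p6) are shown with the seed in capitals, and have the same seed.
mmu-miR-7a-5p: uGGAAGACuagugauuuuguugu
mmu-miR-7b-5p: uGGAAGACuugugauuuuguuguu
The letters searched were GTCTTCC, which pairs with the seed, and TCTTCCA, which pairs with bases 2 to 7 and has an A after them, on the transcript strand only. Pisd-201 held 1 match, at bases 1623 to 1629 in exon 8 beyond the coding part, and Pisd-ps1-201 held 1 at bases 598 to 604 in exon 5. They are shown with 8 bases on each side and the match in capitals.
Pisd: gatccactGTCTTCCtagagcag
Pisd-ps1: ctccagctTCTTCCAgtgactcc
Pisd-ps2-202 held none of these letters, and neither did the other annotated Pisd-ps2 transcripts, 3 in all. A match was present in 9 of 14 annotated Pisd transcripts and in 2 of 4 of Pisd-ps1. Among annotated transcripts within 10% of the same length, 37.1% held a match for the length of Pisd-201, 22.4% for Pisd-ps1-201 and 22.5% for Pisd-ps2-202.

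The libraries held 6.89 to 24.94 M counts. Levels are CPM, the count divided by the total count of the library in M after TMM scaling over all 33 libraries, and counts behind them ran from 115 to 377 for Pisd, 107 to 1098 for Pisd-ps1 and 20 to 187 for Pisd-ps2, so that counting error weighs most on Pisd-ps2. Cyrano stood at 79.2 ± 6.28 CPM (SD, n = 4) in CyrKO and 1832 ± 167 CPM (SD, n = 4) in its wild type, and the row Cdr1as, whose counts do not separate the circular RNA of that name from linear RNA of the gene, at 111 ± 11.6 CPM (SD, n = 4) in CyrMut and 1119 ± 107 CPM (SD, n = 3) in its wild type. Mature miR-7 is not measured by libraries of this kind, so no value checks the Mir7DKO label. The summed level of 5 granule neuron markers was 4799 to 5854 CPM in cerebellum and 45.1 to 56.7 CPM in cortex, that of 5 Purkinje cell markers 3290 to 4005 CPM and 191 to 220 CPM, and that of 5 cortical projection neuron markers 447 to 631 CPM and 1412 to 1672 CPM, as the tissue labels have it. Sums for oligodendrocyte markers (5131 to 8386 CPM in all libraries), astrocyte markers (2310 to 2662 CPM in cerebellum, 994 to 1115 CPM in cortex) and microglial markers (54.8 to 70.5 CPM and 218 to 246 CPM) were of one order in a tissue, while those of choroid plexus markers (159 to 2531 CPM) and erythrocyte markers (36.9 to 1776 CPM) differed more between libraries. In tissue RNA, fewer cells of a type and less RNA per cell cannot be told apart.

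By the counts as listed, Pisd-ps1 had the highest level per kb of the 3 in every group. In the wild type of experiment 1B its level was 8.24 ± 1.32 CPM per kb of merged exons (SD, n = 4), against 2.55 ± 0.24 for Pisd and 1.58 ± 0.47 for Pisd-ps2. Per kb of the single transcripts described above, the same levels were 13.0 ± 2.08 for Pisd-ps1, 6.72 ± 0.63 for Pisd and 2.84 ± 0.85 for Pisd-ps2. The order of the group means was the same by both lengths in the wild type of each experiment in cerebellum, except that Pisd-ps2 (4.35 CPM per kb of merged exons) stood beside Pisd (3.96) in experiment 2 by merged exons and below it by transcripts (7.80 and 10.4 CPM per kb). The merged exons of Pisd join those of 14 annotated transcripts, so its level per kb depends on the choice of length. Of the 2134 stretches of 50 bases of Pisd-201, 52.2% also occur in Gm20671. Whether reads there were counted to Pisd is not stated. If they were not, the levels of Pisd per kb are too low, and its order relative to Pisd-ps1 is uncertain.

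Wild-type cerebella of experiment 2 stood apart from those of experiments 1A and 1B in all 3 rows. Pisd-ps1 stood at 14.3, 15.8 and 14.4 CPM in the wild type of experiment 1A, at 17.0, 11.5, 15.3 and 14.1 CPM in that of experiment 1B, and at 88.8, 92.3, 34.5 and 34.9 CPM in cerebella of experiment 2. The 4 libraries of experiment 2 were thus all higher than the 7 of experiments 1A and 1B, and among themselves fell into a higher and a lower pair. The mean was 4.33 times as high in experiment 2 as in the lowest of the other experiments. Pisd-ps2, the row with the fewest counts, stood at 3.31, 2.48 and 2.14 CPM in experiment 1A, at 4.44, 3.68, 2.07 and 3.17 CPM in experiment 1B, and at 10.5, 14.7, 5.98 and 5.49 CPM in experiment 2, with a largest ratio of means of 3.47. Its higher pair in experiment 2 was the same as that of Pisd-ps1, replicates 1 and 2. Pisd, the coding gene, stood at 13.6, 14.8 and 16.0 CPM, at 13.8, 16.5, 13.4 and 14.9 CPM, and at 26.4, 25.4, 21.0 and 18.2 CPM in the same order of experiments, with a ratio of 1.55. All 3 rows were thus higher in experiment 2 without overlap, a pattern found in 3.6% of the 14431 genes tested. The 7 other libraries include the 4 wild-type ones of experiment 1B, on which the choice of rows also rested. The 3 rows are also not independent of each other. The share of all genes is therefore no measure of how unusual the pattern is for these rows. Erythrocyte marker sums were 50.4 to 69.4 CPM in these 4 libraries and 233 to 1776 CPM in the 7 others, and their part in the difference was not tested; choroid plexus marker sums were 214 to 260 CPM and 187 to 877 CPM. As the libraries of each experiment were prepared and sequenced apart, a difference between the mice and a difference in preparation cannot be told apart.

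**Figure D2:**
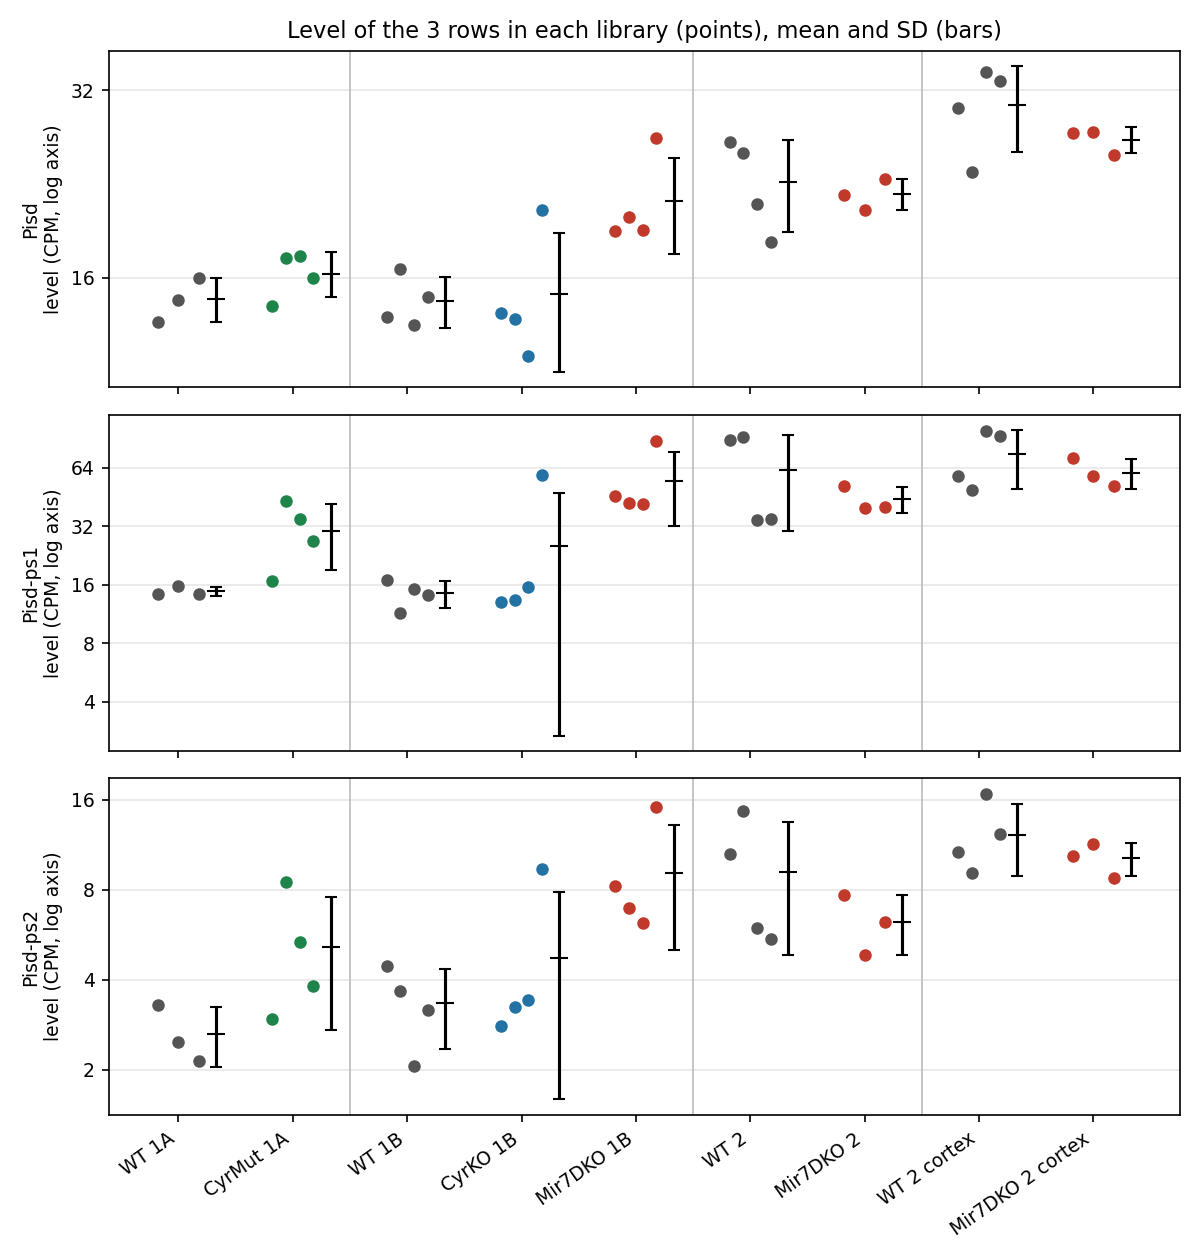
Level of Pisd, Pisd-ps1 and Pisd-ps2 (CPM, log axis) in each of the 33 libraries, by group, with the mean and SD of the group beside the points; cerebellum except the 2 groups on the right, which are cortex. Pisd-ps1 sits between 11.5 and 17.0 CPM in the 7 wild-type libraries of experiments 1A and 1B and between 34.5 and 92.3 CPM in the 4 wild-type cerebella of experiment 2.

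In Mir7DKO cerebella of experiment 1B, the comparison by which the rows were chosen, Pisd-ps1 stood at 46.0, 42.4, 41.9 and 88.5 CPM, against 11.5 to 17.0 CPM in wild type. Pisd-ps2 stood at 8.20, 6.93, 6.21 and 15.1 CPM, against 2.07 to 4.44 CPM in wild type. Pisd stood at 19.0, 20.1, 19.1 and 26.8 CPM, against 13.4 to 16.5 CPM in wild type. All 4 Mir7DKO libraries were above all 4 wild-type libraries in each of the 3 rows, as were those of 1.39% of the 14031 genes tested, and replicate 4 was the highest in every row. The log2 differences were 1.91 for Pisd-ps1 (SE 0.24), 1.42 for Pisd-ps2 (SE 0.30) and 0.53 for Pisd (SE 0.12). Without replicate 4 of Mir7DKO the difference of Pisd-ps1 was the lowest of its leave-one-out values, 1.58, and that of Pisd-ps2 was 1.06. The summed choroid plexus markers were at 191, 200 and 180 CPM in Mir7DKO replicates 1 to 3 and at 684 CPM in replicate 4, and at 219, 877, 187 and 208 CPM in wild type; none of the 12 markers was at 0 in either group, and their part in the level of replicate 4 was not tested. Summed oligodendrocyte markers were at 6389, 7575, 6255 and 5898 CPM in Mir7DKO, lowest in replicate 4, and at 7142 to 7640 CPM in wild type; none of the 5 was at 0, and their part was not tested. The Mir7DKO levels of Pisd-ps1 in experiment 1B all lie within the range of the wild-type cerebella of experiment 2, 34.5 to 92.3 CPM.

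Experiment 2 holds Mir7DKO cerebella that the choice of rows did not rest on, and there 0 of the 3 rows passed the test and all 3 log2 differences were below 0. Pisd-ps1 stood at 51.9, 40.0 and 40.5 CPM in Mir7DKO, against 88.8, 92.3, 34.5 and 34.9 CPM in wild type. All 3 Mir7DKO libraries fell between the higher and the lower wild-type pair. The log2 difference was -0.49 (SE 0.24, 95% interval -0.99 to 0.01), which did not pass the edgeR quasi-likelihood test (adjusted p = 0.743). Fitted without a filter on low counts it passed, at -0.49 with an SE of 0.072 (edgeR adjusted p = 8.7e-09). DESeq2's Wald test gave -0.51 with a far wider SE of 0.47, and the wild-type libraries fell into 2 distant pairs. The call without the filter is therefore not read as a difference. Pisd-ps2 stood at 7.69, 4.83 and 6.25 CPM in Mir7DKO, against 10.5, 14.7, 5.98 and 5.49 CPM in wild type, with a log2 difference of -0.53 (SE 0.25, edgeR adjusted p = 0.730). Pisd stood at 21.7, 20.6 and 23.1 CPM in Mir7DKO, within the wild-type range of 18.2 to 26.4 CPM, with a log2 difference of -0.06 (SE 0.11, edgeR adjusted p = 0.968). The groups overlapped in all 3 rows, as in all but 6.64% of the 14146 genes tested, and 0 of the 3 passed the threshold, where 0.198% of genes did; 1 of the 3, Pisd-ps2, had an unadjusted p under 0.05, as had 6.78% of genes, and DESeq2 called none of them. Choroid plexus marker sums were 1484, 1095 and 215 CPM in Mir7DKO and 214 to 260 CPM in wild type, where the higher pair of Pisd-ps1 had sums of 214 and 260 CPM and the lower pair of 231 and 216 CPM. Their part in the levels was not tested.

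In cortex of experiment 2, Pisd-ps1 stood at 72.3, 58.0 and 51.4 CPM in Mir7DKO and at 58.1, 49.0, 99.6 and 94.0 CPM in wild type. Here replicates 3 and 4 were the higher wild-type pair, whereas in cerebellum it was replicates 1 and 2. Pisd-ps2 stood at 10.4, 11.4 and 8.76 CPM in Mir7DKO and at 10.7, 9.09, 16.7 and 12.3 CPM in wild type. Pisd stood at 27.4, 27.4 and 25.2 CPM in Mir7DKO and at 29.9, 23.7, 34.2 and 33.1 CPM in wild type. All 3 rows overlapped between the groups, where 7.26% of genes did not, with the wild-type pair 3 and 4 above every Mir7DKO library. The log2 differences were -0.34 for Pisd-ps1 (SE 0.18, edgeR adjusted p = 0.879), -0.28 for Pisd-ps2 (SE 0.17, edgeR adjusted p = 0.900) and -0.21 for Pisd (SE 0.10, edgeR adjusted p = 0.871). Thus 0 of the 3 passed, where 0.0436% of 13754 genes did, 0 had an unadjusted p under 0.05, where 5.77% of genes had, and DESeq2 called none. Without a filter on low counts Pisd-ps1 alone passed, at -0.34 (SE 0.070, edgeR adjusted p = 7.9e-04), where DESeq2's Wald test had an SE of 0.31. Choroid plexus marker sums in wild-type cortex were 364, 256, 804 and 942 CPM and so were highest in the replicates in which Pisd-ps1 was highest, against 261 to 283 CPM in Mir7DKO; none of the 12 markers was at 0 in the wild type, and their part in the difference was not tested. The change in cortex minus that in cerebellum was 0.14 for Pisd-ps1 (SE 0.37), 0.24 for Pisd-ps2 (SE 0.35) and -0.15 for Pisd (SE 0.16), and 0 of the 3 passed the edgeR interaction test (adjusted p = 1.00 for each), where 0.155% of 14886 genes did.

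In CyrMut cerebella, Pisd-ps1 stood at 16.7, 43.2, 34.9 and 26.9 CPM, against 14.3, 15.8 and 14.4 CPM in wild type. All 4 CyrMut libraries were above the 3 of wild type, with replicate 1 just above the highest wild-type library, and 2.33% of the 14866 genes tested showed that pattern. The log2 difference was 1.04 (SE 0.25, 95% interval 0.49 to 1.58). With an unadjusted p of 0.00154, rank 22 among the genes, it did not pass the edgeR test after adjustment (adjusted p = 0.944), where 0.00673% of genes did. Fitted without a filter on low counts it passed, at 1.03 (SE 0.17, edgeR adjusted p = 0.0034). DESeq2's Wald test had an SE of 0.34 and did not call it. Pisd-ps2 stood at 2.97, 8.46, 5.34 and 3.81 CPM against 2.14 to 3.31 CPM in wild type and overlapped with it, with a log2 difference of 0.93 (SE 0.32, unadjusted p = 0.0143, edgeR adjusted p = 0.944). Pisd stood at 14.4, 17.2, 17.4 and 16.0 CPM against 13.6 to 16.0 CPM, with a log2 difference of 0.15 (SE 0.097, edgeR adjusted p = 0.944). An unadjusted p under 0.05 was found for 2 of the 3 rows and for 4.98% of all genes. These 2 rows, Pisd-ps1 and Pisd-ps2, vary together between libraries and share part of their sequence, so they are not 2 independent results. Replicate 1 was the lowest CyrMut library in all 3 rows. Choroid plexus marker sums were 1939, 251, 2531 and 1705 CPM in CyrMut and 866, 197 and 213 CPM in wild type. Among CyrMut libraries, that with Pisd-ps1 at 43.2 CPM had the lowest sum and that at 34.9 CPM the highest. The part of these markers in the difference was not tested.

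In CyrKO cerebella, 1 library lay apart from the other 3. Pisd-ps1 stood at 13.1, 13.3, 15.5 and 59.0 CPM, against 17.0, 11.5, 15.3 and 14.1 CPM in wild type, so 3 CyrKO libraries lay inside the wild-type range and replicate 4 above it. Pisd-ps2 showed the same order of size, with 2.81, 3.23 and 3.43 CPM and then 9.38 CPM in replicate 4. Pisd stood at 14.1, 13.7, 11.97 and 20.6 CPM, again highest in replicate 4. With all libraries, the log2 differences were 0.83 for Pisd-ps1 (SE 0.41, edgeR adjusted p = 0.686), 0.52 for Pisd-ps2 (SE 0.35, edgeR adjusted p = 0.727) and 0.06 for Pisd (SE 0.15, edgeR adjusted p = 0.939). Without replicate 4 they were -0.05, -0.08 and -0.14. None of the 3 passed, where 0.022% of 13664 genes did, 0 had an unadjusted p under 0.05, where 7.35% of genes had, and DESeq2 called none. Choroid plexus marker sums were 458, 159, 203 and 213 CPM in CyrKO, the 213 CPM being that of replicate 4, and their part in the levels was not tested. This comparison shares its 4 wild-type libraries with that of Mir7DKO in experiment 1B, and the values of the comparisons are not independent.

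**Figure D3:**
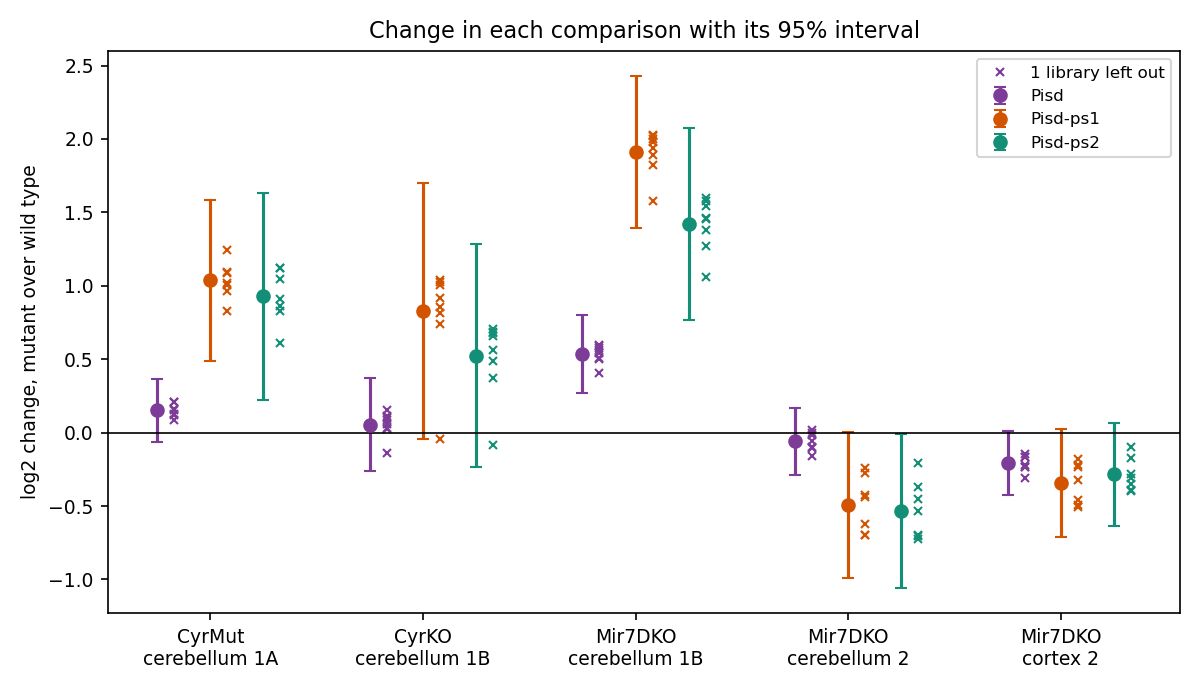
Log2 change of mutant over wild type for each row in the 5 comparisons (points) with its 95% interval (bars) and the values with 1 library left out in turn (crosses). The bars of Mir7DKO of experiment 1B are a description and no test, since the rows were chosen on that comparison. Pisd-ps1 is at 1.91 in Mir7DKO of experiment 1B and at -0.49 in Mir7DKO cerebellum of experiment 2, and the CyrKO crosses near 0 are the fits without replicate 4.

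Ordered by level of Pisd-ps1, the 33 libraries had their largest step between 17.0 and 26.9 CPM, a ratio of 1.58. The 11 libraries below the step were the 7 wild-type libraries of experiments 1A and 1B, CyrMut replicate 1 and CyrKO replicates 1 to 3. The 22 above it were all libraries of experiment 2 in either tissue and genotype, all 4 Mir7DKO libraries of experiment 1B, 3 of CyrMut and 1 of CyrKO. Neighbouring libraries above the step differed by at most 1.28 times. The highest 4 libraries, at 88.8 CPM or more, were all wild type of experiment 2, and Mir7DKO replicate 4 of experiment 1B came next at 88.5 CPM.

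The levels of the 3 rows were compared from library to library. Over the 26 cerebellar libraries, each taken relative to the wild-type mean of its own experiment, log2 levels of Pisd-ps1 and Pisd-ps2 had a Pearson r of 0.95 (Spearman rho 0.89), Pisd-ps1 and Pisd 0.88 (rho 0.76), and Pisd-ps2 and Pisd 0.85 (rho 0.79). Without the 2 libraries farthest from the median on the first row of each pair, r was 0.92, 0.81 and 0.81. These values include the 4 Mir7DKO libraries of experiment 1B, on which the rows were chosen; without them, over 22 libraries, r was 0.92 (rho 0.83), 0.77 (rho 0.61) and 0.73 (rho 0.67), and without the 2 farthest of these 0.85, 0.62 and 0.59. Relative to the mean of each library's own group, over all 33, r was 0.88, 0.82 and 0.77, and without those 4 libraries 0.86, 0.80 and 0.74. These correlations are descriptions: the points share library and depth, groups of libraries share a genotype, and the rows share part of their sequence.

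The makeup of the summed counts differed with the level. The shares are computed from the levels given above, where Pisd-ps1 differed more between libraries than Pisd did, and are no separate result. In the 7 wild-type libraries of experiments 1A and 1B, Pisd-ps1 made up 36.2% to 49.7% of the counts of the 3 rows, and in the 4 wild-type cerebella of experiment 2 it made up 56.1% to 70.6%. Pisd made up 39.2% to 52.2% of the counts in the former and 19.2% to 34.2% in the latter. The share of Pisd-ps2 was between 6.57% and 12.6% in all 33 libraries. In CyrKO, Pisd-ps1 made up 43.7%, 44.0% and 50.2% in replicates 1 to 3 and 66.3% in replicate 4.

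**Figure D4:**
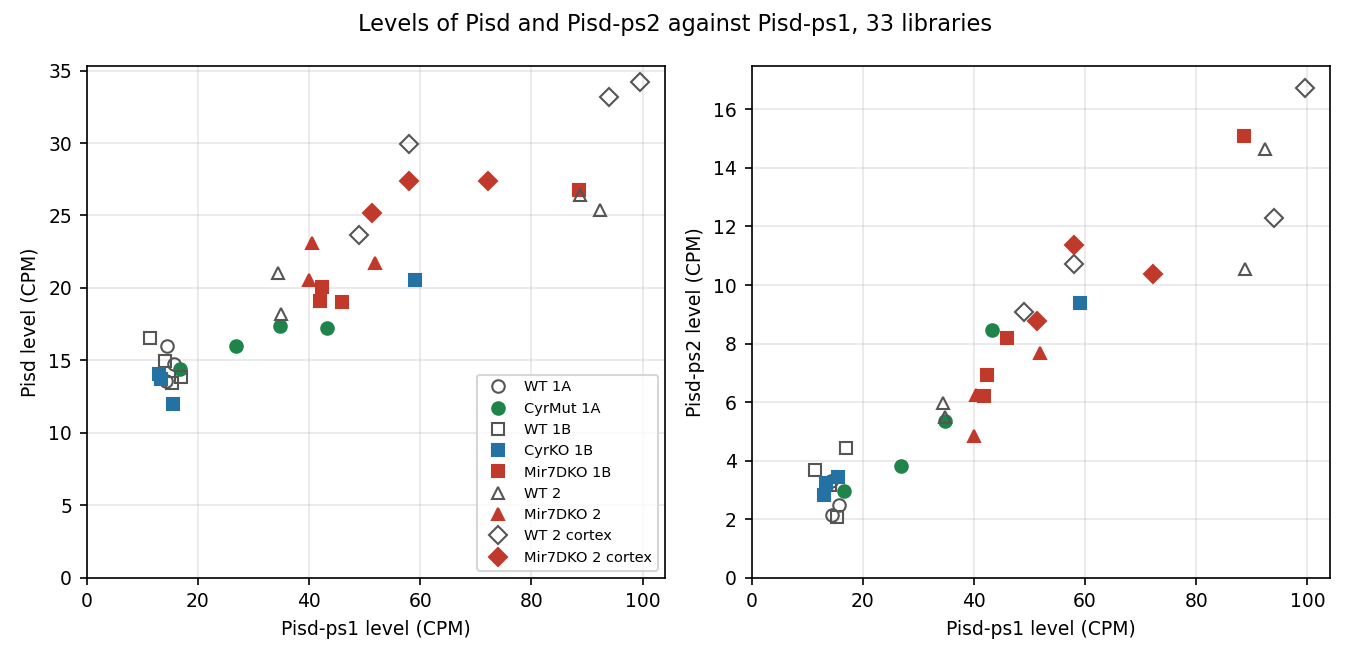
Level of Pisd (left) and Pisd-ps2 (right) against that of Pisd-ps1 in the 33 libraries, in CPM on linear axes from 0; open symbols are wild type, shapes mark the experiment and cortex has diamonds. The 11 libraries with Pisd-ps1 at 17.0 CPM or less lie at the lower left, and over the 33 libraries as a whole both rows tend to be higher where Pisd-ps1 is higher. Within groups, that is for log2 levels relative to group means, r with Pisd-ps1 was 0.82 for Pisd and 0.88 for Pisd-ps2. Without Mir7DKO of experiment 1B, on which the rows were chosen, it was 0.80 and 0.86.

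Between tissues, in the wild type of experiment 2, Pisd was lower in cerebellum than in cortex. Its means were 22.8 ± 3.83 CPM in cerebellum and 30.2 ± 4.73 CPM in cortex (SD, n = 4 each), and the ranges of 18.2 to 26.4 CPM and 23.7 to 34.2 CPM overlapped. The log2 difference of -0.47 (SE 0.11) passed the edgeR test (adjusted p = 7.2e-04), as did 74.7% of the 14001 genes tested, so most genes pass in this comparison. Pisd-ps1, with means of 62.6 ± 32.3 CPM and 75.2 ± 25.3 CPM (SD, n = 4 each), had a log2 difference of -0.33 (SE 0.25, edgeR adjusted p = 0.235). Pisd-ps2, with 9.17 ± 4.31 CPM and 12.2 ± 3.29 CPM (SD, n = 4 each), had one of -0.49 (SE 0.23, edgeR adjusted p = 0.063). The calls of the pseudogenes turned on single libraries: without wild-type cerebellum replicate 2, Pisd-ps1 was at -0.58 (edgeR adjusted p = 0.045) and Pisd-ps2 at -0.80 (edgeR adjusted p = 0.0018), and Pisd-ps2 also passed without wild-type cortex replicate 1 or replicate 2 (edgeR adjusted p = 0.045 and 0.027).

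Genes of the pathway around Pisd were followed with a list of 41 genes of phosphatidylserine and phosphatidylethanolamine synthesis, mitochondrial lipid transfer and cardiolipin synthesis, all of which had a row. In the 5 comparisons of mutant with wild type, 39 to 41 of them were tested and 0 passed the edgeR threshold in either direction, with 0 (CyrMut), 1 (CyrKO), 1 (Mir7DKO of experiment 1B), 2 (Mir7DKO cerebellum of experiment 2) and 2 (Mir7DKO cortex) at an unadjusted p under 0.05. The shares of all genes at that p were 4.98%, 7.35%, 3.68%, 6.78% and 5.77% in the same order, so the list did not exceed what so many genes give. In Mir7DKO of experiment 1B, where 0.00713% of genes passed, the median log2 change of the list was 0.01, where that of all genes tested was 0.00, and its members ranged from -0.13 to 0.36. Ptdss1 and Ptdss2, which make the substrate of the decarboxylase, were at -0.07 (SE 0.062) and 0.04 (SE 0.067) there. Etnppl, which breaks down phosphoethanolamine, was the highest of the list in that comparison at 0.36 (SE 0.14, edgeR adjusted p = 1.00) and the lowest in Mir7DKO cerebellum of experiment 2 at -0.28 (SE 0.086, edgeR adjusted p = 0.315).

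Between tissues, 14 of the 39 tested list genes were higher in cerebellum and 14 lower, with a median of 0.05 beside 0.01 for all genes. With 74.7% of all genes past the threshold in this comparison, the count is near the background and nothing about the list is read from it; the members that passed are given as levels of the pathway in these tissues. Ptdss1 was lower in cerebellum by edgeR's test, at -0.30 (SE 0.058), as Pisd was, and Ptdss2 was higher at 0.17 (SE 0.063). Of the route from ethanolamine, the kinases Etnk1 (-0.23) and Etnk2 (-1.42) were lower, and Pcyt2 (0.47), which activates phosphoethanolamine, and Etnppl (1.69) were higher. Of the parallel route to phosphatidylcholine, Chka (0.26), Chkb (1.16), Pcyt1a (0.51) and Chpt1 (1.25) were higher and Pcyt1b (-0.71) lower. Among genes of cardiolipin synthesis and its precursors and of mitochondrial lipid transfer and scaffolds, Tamm41 (0.36) and Taz (0.39) were higher, and Cds2 (-0.16), Pgs1 (-0.80), Prelid1 (-0.17), Slmo1 (-0.23) and Phb2 (-0.27) were lower. Of the acyltransferases and lipins of glycerolipid synthesis, Gpam (0.14), Agpat5 (0.69), Lpin1 (0.64) and Lpin3 (1.82) were higher, and Agpat1 (-0.80), Agpat4 (-0.44), Lclat1 (-0.93) and Lpin2 (-0.34) were lower. Sgpl1 (0.53), which yields phosphoethanolamine from sphingosine phosphate, was higher, and Napepld (-0.64), which cleaves N-acyl phosphatidylethanolamine, was lower.

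The genes around the 3 rows were measured as well. Of 27 measured genes within 500 kb of a row (8 around Pisd, 16 around Pisd-ps1 and 3 around Pisd-ps2), 0 passed the edgeR threshold in any comparison of mutant with wild type. Sfi1, a centrosome gene that lies 846 bases beyond Pisd-ps1 on the opposite strand, was at 21.7 ± 3.57 CPM in wild type of experiment 1B and 20.5 ± 1.47 CPM in Mir7DKO (SD, n = 4 each), a log2 change of -0.09 (SE 0.11). Its level in wild-type cerebella of experiment 2 was 20.8 ± 1.72 CPM (SD, n = 4), and over the 26 cerebellar libraries it had a Pearson r of -0.26 with Pisd-ps1. Prr14l, 4174 bases from Pisd, had an r of -0.44 with Pisd, and Yes1, a tyrosine kinase gene 49244 bases away on the other side, had one of 0.00. Scaf8, 30789 bases from Pisd-ps2, had an r of 0.02 with it, and the nearest measured genes were on 1 side only for the pseudogenes. Between tissues of the wild type, 4 of 8 measured genes around Pisd were higher and 3 lower in cerebellum, 9 and 1 of 16 around Pisd-ps1, and 1 and 1 of 3 around Pisd-ps2, where 74.7% of all genes passed, and nothing about the neighbourhoods is read from these counts. The widest differences were those of Slc5a1 (6.31), a sodium and glucose transporter, and Plb1 (-4.13), a phospholipase, both around Pisd, of Selm (1.75) around Pisd-ps1, and of Tiam2 (-2.53) around Pisd-ps2. The others that passed were Prr14l (0.14), Yes1 (0.85), Ywhah (0.46), Ppp1cb (-0.13), Ctbp1 (-0.13), Eif4enif1 (0.14), Patz1 (0.27), Gm11944 (1.38), Pik3ip1 (0.78), Limk2 (0.29), Rnf185 (0.18), 8430429K09Rik (0.33), Inpp5j (1.49), Drg1 (-0.24) and Scaf8 (0.47).

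Among 13977 genes with a mean of at least 1 CPM, the gene most like each row over the 26 cerebellar libraries was Hlf, which encodes a transcription factor of the PAR bZIP family, with a Pearson r of 0.74 with Pisd, 0.75 with Pisd-ps1 and 0.71 with Pisd-ps2. Its level was 143 ± 10.9 CPM in wild type of experiment 1B and 166 ± 8.64 CPM in Mir7DKO (SD, n = 4 each). In wild-type cerebella of experiment 2, where the 3 rows were higher, Hlf was at 147 ± 5.22 CPM (SD, n = 4), and in those of experiment 1A at 153 ± 7.18 CPM (SD, n = 3). After Hlf, the genes most like Pisd-ps1 were Zfp78 (r 0.74), Gm12338 (0.73), Lrfn5 (0.70) and 1810009A15Rik (0.67). For Pisd-ps2 they were Ankzf1 (0.69), Lrfn5 (0.67), Tmem219 (0.66) and Zfp78 (0.66), and for Pisd they were Ppap2b (0.69), Plk5 (0.67), Defb42 (0.67) and Gm12338 (0.67). These values too include the libraries on which the rows were chosen. Relative to the mean of each library's own group, the r of Hlf was 0.59 with Pisd, 0.44 with Pisd-ps1 and 0.37 with Pisd-ps2. That measure is over all 33 libraries, with cortex and the libraries of the choice included. It thus differs from the first in the set of libraries as well. The other genes listed were between 0.17 and 0.44 with Pisd, 0.18 and 0.53 with Pisd-ps1, and 0.35 and 0.58 with Pisd-ps2. By this measure Zfp78 (0.53) stood above Hlf for Pisd-ps1 and Tmem219 (0.58) for Pisd-ps2. Gm12338 was at 0.18 with Pisd-ps1, and Ppap2b at 0.19 with Pisd.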

How the data were processed

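The authors deposited 1 table per comparison of mutant with wild type, each with whole-number read counts per gene and library, a normalised signal (the count divided by a size factor), and their DESeq2 results as log2 fold change, score and p-value; only the counts were used here. The submitters' processing notes name the builds mm10 and GRCm38, the aligner STAR 2.4, HTSeq 0.6.1p1 and, for the test, DESeq2 1.10; no source used here says whether counting used strand. Wild-type libraries of experiment 1B stand in both of its tables. In 1 gene record the cell of the authors' mean count was missing and was put back empty, so that the counts stood in their columns. For tests, edgeR 4.0.16 ran under R 4.3.3 (genes kept by filterByExpr at 10 counts, TMM scaling, two-sided quasi-likelihood F-test on the counts, Benjamini-Hochberg over all genes tested, threshold 0.05), with only the libraries of the comparison; all 3 rows passed the filter in each. For the comparison of tissues, the 4 wild-type cerebella and 4 cortices were used. Replicates are biological by the submitters' account. DESeq2 1.42.0 was the other tool. Correlations used log2 CPM with a prior count of 2. Transcripts were aligned with blastn 2.17.0. The fit was tested on simulated data with known changes. The transcripts shown are the first named of each gene with at least 7 exons. Named were the 3 rows, list and neighbour genes past the threshold, otherwise those with the smallest p or nearest, the 5 genes most like each row, and Cyrano and Cdr1as. The rows, lists and rules were chosen with earlier results of these data known. Intervals cover 95%.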

Additional observations from a re-analysis of the deposited data

Results flagged for a closer look

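A single library stood apart from the other 3 of its group in 2 places, by the gap to its nearest neighbour as a share of the range of the group against Dixon's critical value of 0.829 for 4 libraries. In CyrKO cerebella, replicate 4 was the highest for Pisd-ps1 at 59.0 CPM (gap 0.947 of the range) and for Pisd-ps2 at 9.38 CPM (gap 0.906). Chance flags about 1 in 20 groups, the 3 rows are not independent of each other, and neither groups of 3 libraries nor the Mir7DKO cerebella of experiment 1B, on which the rows were chosen, were tested.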

How the results depend on the processing

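With 1 library left out in turn, log2 changes of Pisd, Pisd-ps1 and Pisd-ps2 ran from 0.09 to 0.21, 0.83 to 1.24 and 0.61 to 1.12 in CyrMut, from -0.14 to 0.15, -0.046 to 1.04 and -0.082 to 0.71 with CyrKO, from 0.40 to 0.59, 1.58 to 2.03 and 1.06 to 1.60 in Mir7DKO of experiment 1B, from -0.16 to 0.018, -0.70 to -0.24 and -0.72 to -0.21 in Mir7DKO cerebellum of experiment 2, and from -0.31 to -0.15, -0.50 to -0.18 and -0.40 to -0.10 in Mir7DKO cortex. The signs in CyrKO turned without CyrKO replicate 4 alone, and that of Pisd in Mir7DKO cerebellum of experiment 2 without wild-type cerebellum replicate 1. Between tissues the ranges were -0.57 to -0.36, -0.58 to -0.11 and -0.80 to -0.29, and for the change in cortex minus cerebellum -0.25 to -0.05, -0.11 to 0.35 and -0.078 to 0.43, where the sign of Pisd-ps1 turned without wild-type cerebellum replicate 1 or 2 or wild-type cortex replicate 2, and that of Pisd-ps2 without wild-type cerebellum replicate 2. Without a filter on low counts, Pisd-ps1 passed in CyrMut at 1.03 (edgeR adjusted p = 0.0034), in Mir7DKO cerebellum of experiment 2 at -0.49 (edgeR adjusted p = 8.7e-09), in Mir7DKO cortex at -0.34 (edgeR adjusted p = 7.9e-04) and between tissues at -0.28, and Pisd-ps2 between tissues at -0.44. The unfiltered fits changed the standard error more than the value, from 0.24 to 0.072 for Pisd-ps1 in Mir7DKO cerebellum of experiment 2. DESeq2's Wald test had an SE of 0.47 there. The unfiltered fit called 184 genes there where the filtered fit called 28, and 43 where it called 1 in CyrMut. The cause was not tested. With the 3 rows summed into 1, the change in Mir7DKO of experiment 1B was 1.39 for the sum, between those of the rows.

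Replicate numbers are shared across groups, and pairing was taken as shown only where every same-numbered pair had a correlation of deviations over 0.1, which held in no comparison. The correlations ran from -0.16 to 0.24 in CyrMut, -0.21 to 0.10 in CyrKO, 0.0044 to 0.30 in Mir7DKO of experiment 1B, -0.084 to 0.040 in Mir7DKO cerebellum of experiment 2, 0.048 to 0.10 in Mir7DKO cortex and -0.029 to 0.0013 between tissues; in Mir7DKO cortex alone did each library with a partner correlate best with its own number. With the replicate number as a block, no row changed its call in the comparisons in which the rows were tested, which leaves out Mir7DKO of experiment 1B. Pisd-ps1 was then at 1.01 for CyrMut, 0.58 for CyrKO, 1.88 for Mir7DKO of experiment 1B, -0.62 in Mir7DKO cerebellum of experiment 2 (edgeR adjusted p = 0.076) and -0.19 in Mir7DKO cortex, where the block moved the count of genes called from 6 to 19. DESeq2's size factors, DESeq2's Wald test and 1 fit of all 33 libraries kept the direction of every row in every comparison in which they were run, and the call of every row in those in which the rows were tested.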
